A study of Mus musculus with 11 samples.

Results

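Mature microRNAs (miRs) in the whole aorta of apoE-/- mice were compared between 10 months of high fat diet and a normal diet. The samples were chosen by their titles, as the 3 mice of the 10-month diet group and the 4 controls, 7 of the 11 samples in all, and every row named as a mouse miR was kept, 517 of 530 rows. All mice were female and of the apoE-/- strain, in which the loss of apolipoprotein E leads to atherosclerosis, and each array held the RNA of 1 mouse. The controls received a regular diet and their aortas are labelled as free of atherosclerosis. The high fat diet contained 21% crude fat, 19.5% casein and 0.15% cholesterol, and the aortas of these mice are labelled as atherosclerotic. The labelled age is 6 to 8 weeks in both groups, and nothing says how long the controls were kept, so time on the diet and age cannot be told apart. The 10-month mice carry a treatment label of 3 months, which goes against their titles and the design text, and were grouped by title. A further 4 mice, taken after 3 months of the diet, entered the fit and so shared in the estimate of the spread, in the choice of the reference miRs and in the filter (345 miRs passed it with only the 7 mice, against 353). Their folds are given beside the results where stated.

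A miR is cut from a hairpin precursor, and either of its arms can be loaded into an Argonaute protein, which it guides to messenger RNAs that pair with its seed, bases 2 to 8 from its 5′ end. In older names the less abundant arm, the passenger strand, carries an asterisk. The vessel wall is rich in miR-143 and miR-145 in smooth muscle and miR-126 in endothelium, whereas lesions bring in macrophages and other blood cells with miRs such as miR-155, miR-146a, miR-142 and miR-223. The Dlk1-Dio3 region is an imprinted interval of mouse chromosome 12 that holds a large group of miR hairpins. They are transcribed from the maternal chromosome, in a group antisense to the gene Rtl1 and in the cluster that runs from miR-379 to miR-410.

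Of the 353 miRs tested, 13 fell and 3 rose after 10 months of the diet (limma, Benjamini-Hochberg adjusted p under 0.05), and the mature sequences show how these miRs relate to each other. A sequence was found by name in the RefSeq table (build GRCm38.p6) for 15 of the 16, the exception being miR-376c, and seeds are in capitals. The miRs that fell come from 11 hairpins, all in the Dlk1-Dio3 region, and those with a sequence are shown in their order along the plus strand:
miR-337-5p: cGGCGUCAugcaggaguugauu
miR-337-3p: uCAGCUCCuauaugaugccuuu
miR-127: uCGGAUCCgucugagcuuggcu
miR-434-3p: uUUGAACCaucacucgacuccu
miR-379: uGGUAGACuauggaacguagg
miR-411*: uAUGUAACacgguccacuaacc
miR-494: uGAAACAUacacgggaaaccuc
miR-495: aAACAAACauggugcacuucuu
miR-376b*: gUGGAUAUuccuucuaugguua
miR-376b: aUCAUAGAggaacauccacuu
miR-376a*: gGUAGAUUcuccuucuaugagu
miR-485*: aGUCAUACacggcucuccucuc
The 12 sequences carry 12 different seeds. The first of them, miR-337-5p, lies at chr12:109585818-109585839 and the last, miR-485*, at chr12:109734946-109734967, a span of 149150 bases. The 3 that rose come from other chromosomes and share no seed with each other or with those that fell:
miR-21*: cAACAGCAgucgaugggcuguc
miR-193: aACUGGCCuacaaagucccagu
miR-129-5p: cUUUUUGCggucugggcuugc
miR-21* lies at chr11:86584082-86584103 on the minus strand and miR-193 at chr11:79712009-79712030 on the plus strand. miR-129-5p is made from 2 hairpin genes, which an assay of the mature miR cannot tell apart.

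The measured quantity was the PCR threshold cycle, where each further cycle needed means less template on a log2 scale. A well below 35 cycles counted as detected and any other was set to 35. Levels are given on the log2 scale against the array mean, taken over the 285 miRs that all 11 samples detected, and levels of different assays are not compared, since their efficiencies were not measured. In controls 336 to 380 miRs were detected per mouse (353.2 ± 21.0, SD, n = 4), and in the 10-month mice 322 to 369 (348.7 ± 24.1, SD, n = 3). Neither this number (exact two-sided permutation p = 0.8) nor the mean cycle of the 285 miRs (24.2 ± 0.84 in controls and 24.5 ± 2.08 after 10 months, p = 0.771) differed beyond the spread, and the smallest p this test can give is 0.0286. Replicate 2 of the 10-month group stood apart. Its mean cycle was 26.9, against 23.2 to 25.3 in the other 6 mice, the mean of its 2 small nucleolar RNA control assays came at 19.7 cycles, and that of the others at 15.4 to 17.4. Since undetected wells are set to 35 cycles before centring, the lowest level that could be measured was -8.08 in this mouse and lay between -11.83 and -9.70 in the other 6. Values without this mouse are given below for the calls that ended without it and where a fold or median moved most.

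**Figure D1:**
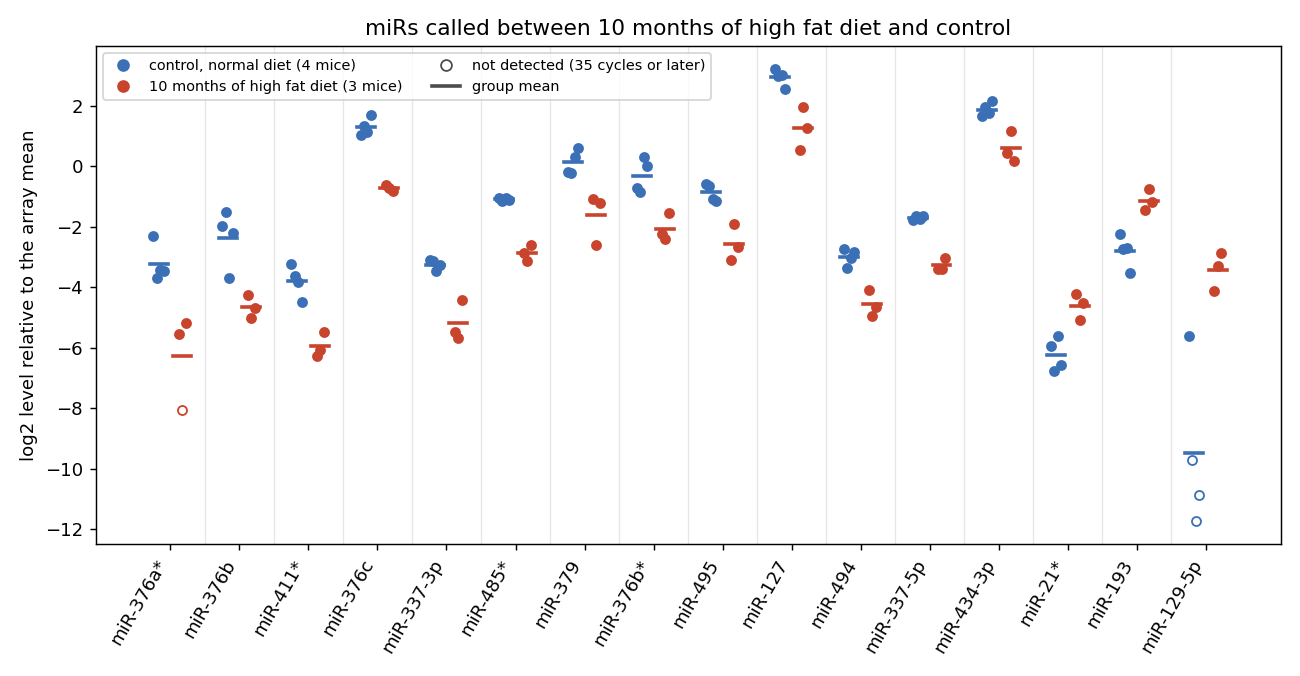
Log2 level relative to the array mean (vertical axis) of the 16 miRs called between the groups (horizontal axis), 1 point per mouse, blue for the 4 controls and red for the 3 mice after 10 months of high fat diet, open where not detected, with bars at group means. In each of the 13 miRs on the left every 10-month mouse lies below every control, as for miR-376c at -0.80 to -0.61 against 1.04 to 1.70, and in the 3 on the right every 10-month mouse lies above.

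The Dlk1-Dio3 miRs were 13 of the 16 called, and 24 of the 60 with an unadjusted p under 0.05. The list of the region had 64 assays, of which 41 passed the filter on detection, 12 were detected in none of the 7 mice, and the rest were detected too seldom to be tested. It left out miR-666-5p, which lies between miR-494 and miR-543 at chr12:109717103-109717124 and did not pass the filter. Of the 41, 13 fell, 0 rose and 38 had a negative fold, with a median log2 fold of -1.44. Some members, among them miR-127* and miR-299*, passed the filter through the controls and not through the 10-month mice. Their folds carry that selection and are counted here. Over all 353 tested miRs 4.53% were called, 3.68% fell and 0.85% rose, 49.6% had a negative and 50.4% a positive fold, and the median was 0.0049. Of the 312 tested miRs outside the region, 3 rose, 0 fell and the median was 0.11. The array mean used for centring includes members of the region, so lower levels of these shift all other folds upward. With the array median as reference, the median was 0.25 over all tested miRs and -1.20 over the region. In bulk tissue a smaller share of the cells that make a miR and less of it per cell cannot be told apart.

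Within the region, the miRs antisense to Rtl1, which are known to guide the cleavage of the Rtl1 messenger RNA, lie before the cluster from miR-379 to miR-410. Of their 9 tested members 4 fell and 9 were negative, with a median of -1.57. miR-127 was at 3.23, 2.98, 3.01 and 2.56 in the controls and at 0.54, 1.97 and 1.28 in the 10-month mice. The groups did not overlap, and its level was 3.21-fold lower (log2 fold -1.68, SE 0.40, limma adjusted p = 0.0489). miR-434-3p was at 1.66, 1.95, 1.76 and 2.14 in controls and at 0.44, 1.17 and 0.19 after 10 months, again without overlap (log2 fold -1.28, SE 0.31, limma adjusted p = 0.0489). Replicate 2 was the highest of the 3 diet mice for both, and without it their folds were -2.04 and -1.56.

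Both arms of the miR-337 hairpin fell. miR-337-5p was at -1.79, -1.65, -1.74 and -1.66 in controls and at -3.39, -3.41 and -3.03 after 10 months (log2 fold -1.56, SE 0.30, limma adjusted p = 0.0226). miR-337-3p was at -3.12, -3.13, -3.47 and -3.28 in controls and at -5.48, -5.67 and -4.43 after 10 months (log2 fold -1.94, SE 0.39, limma adjusted p = 0.0259). The controls of miR-337-5p lay close together (SD 0.07, n = 4), and all 3 diet mice lay well below them. Without replicate 2 neither arm was called, with limma adjusted p = 0.0532 for miR-337-5p and 0.069 for miR-337-3p. Of the other members, miR-434-5p was at -1.57 (limma adjusted p = 0.0738), miR-433 at -1.58 (0.111) and miR-136 at -1.19 (0.139), none past the threshold. miR-127*, the other arm of miR-127, was detected in 3 of 4 controls and 1 of 3 diet mice, and its log2 fold of -1.02 (SE 1.20) is set by undetected wells.

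The cluster from miR-379 to miR-410 lies further along the strand, and 9 of its 29 tested members fell, with 27 negative and a median of -1.44. miR-376c had the smallest p of all. It was at 1.04, 1.32, 1.12 and 1.70 in controls and at -0.61, -0.72 and -0.80 in the 10-month mice, a gap wider than the range of either group. This level was 4.02-fold lower (log2 fold -2.01, limma adjusted p = 0.0034, SE 0.25), and leaving out replicate 2 gave the same -2.01.

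The miR-376 hairpins are near copies of each other that are edited by adenosine deaminases in other tissues. miR-376b was at -1.99, -1.52, -3.71 and -2.22 in controls and at -4.27, -5.03 and -4.67 after 10 months (log2 fold -2.30, SE 0.55, limma adjusted p = 0.0489). Its passenger strand miR-376b* was at -0.71, -0.84, 0.31 and 0.01 against -2.26, -2.39 and -1.54 (log2 fold -1.75, SE 0.37, limma adjusted p = 0.0318), so that both arms of this hairpin fell. Both calls ended without replicate 2, at limma adjusted p = 0.137 for miR-376b (log2 fold -2.11) and 0.0783 for miR-376b* (-1.59). Of the hairpin of miR-376a, the passenger strand fell and the guide did not pass. miR-376a* was at -2.32, -3.70, -3.42 and -3.45 in controls and at -5.55 and -5.18 in replicates 1 and 3, while in replicate 2 it was not detected, at the limit of -8.08. Its log2 fold was -3.05 (SE 0.66, limma adjusted p = 0.0318) and -2.15 without replicate 2. miR-376a was at -2.80, -3.11, -2.21 and -1.99 against -2.89, -4.36 and -2.79, overlapping (log2 fold -0.82, SE 0.50, limma adjusted p = 0.547, and -0.31 without replicate 2). The mature miR-376a and miR-376b differ at 3 of 21 bases, and how far their assays tell them apart is not given in the sources used here.

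At the start of the cluster, miR-379 was at -0.19, -0.21, 0.30 and 0.62 in controls and at -1.09, -2.59 and -1.20 after 10 months (log2 fold -1.76, SE 0.43, limma adjusted p = 0.0489). Without replicate 2 it was no longer called (-1.28, limma adjusted p = 0.122). miR-411* was at -3.23, -3.63, -3.81 and -4.48 against -6.29, -6.08 and -5.49 (log2 fold -2.16, SE 0.39, limma adjusted p = 0.0226). Its guide, miR-411, which differs from miR-379 at 7 of 21 bases, was spread widely in the controls, at -0.30, 0.00, 2.31 and 2.69. The diet mice lay inside that range or below it, at 1.50, -1.50 and 0.92 (log2 fold -0.87, SE 0.88, limma adjusted p = 0.732), and without replicate 2 the fold was 0.04.

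miR-494 and miR-495, which have been studied as miRs that restrain blood vessel growth after a blocked artery in mice, fell together. miR-494 was at -2.74, -3.38, -3.05 and -2.84 in controls and at -4.10, -4.95 and -4.64 after 10 months (log2 fold -1.57, SE 0.29, limma adjusted p = 0.0226). miR-495 was at -0.57, -0.64, -1.08 and -1.16 against -3.11, -1.92 and -2.66 (log2 fold -1.70, SE 0.32, limma adjusted p = 0.0226). miR-329, of the same studies, was at -1.70 (SE 0.49, limma adjusted p = 0.0738) with no overlap, and miR-487b was detected in none of the 7 mice. miR-485* had closely grouped controls, at -1.04, -1.16, -1.04 and -1.13, and diet mice at -2.86, -3.14 and -2.60 (log2 fold -1.77, SE 0.32, limma adjusted p = 0.0226). miR-485 itself was detected in 2 of 4 controls and 0 of 3 diet mice and was not tested.

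Towards the end of the cluster, miR-410 was at -1.05 (limma adjusted p = 0.0628, SE 0.28) and miR-543, nearer its middle, at -1.45 (SE 0.42, limma adjusted p = 0.0738), with no overlap between the groups in either. The 3 tested members of the region outside these groups were miR-370 at -0.80, miR-673-5p at -1.05 and miR-673-3p at 0.45, none called. Without replicate 2 their folds were -0.43, -0.13 and 0.89, and their median moved from -0.80 to -0.13. miR-673-3p was not detected in control replicate 4, and with undetected wells missing its fold was -1.54. Besides miR-673-3p, the members with a positive fold were miR-323-3p and miR-300*, each at 0.45, and both are named after their values were seen. Without replicate 2 the fold of miR-323-3p was 0.05 and that of miR-300*, detected in 3 of 4 controls and 1 of 3 diet mice, was -0.45. The widest negative fold, that of miR-382 at -3.54 (SE 1.55, limma adjusted p = 0.279), is likewise named for its value. miR-382 was detected in 2 of 3 diet mice, and without replicate 2, where it was not detected, its fold was -1.23.

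In all, 24 of the 41 members were lower at an unadjusted p under 0.05 and 0 were higher, whereas 33 of all 353 tested miRs (9.35%) were lower and 27 (7.65%) higher. The groups did not overlap in 21 members, all lower, against 33 (9.35%) lower and 23 (6.52%) higher over all tested miRs. The assays of the region stood in the 2 blocks of the deposited table, and the medians were -1.45 over 31 miRs in the first and -1.25 over 10 in the second. Without replicate 2 the median of the 41 was -1.37. Summed on the linear scale and taken back to log2, the level of the tested members was 4.74 to 5.08 in the controls and 3.46 to 3.71 in the 10-month mice. At 3 months the median fold against the same 4 controls was -0.46, and the controls are shared by the 2 comparisons.

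The call of a single member depended on the mice. Leaving out control replicate 2 left 1 of the 16 calls, miR-376c. Without control replicate 4, 2 of the 16 were left (miR-376c and miR-411*), and without 10-month replicate 1 also 2 (miR-376c and miR-494). Without 10-month replicate 2, 9 of the 16 were left, and the 7 that were not had a limma adjusted p from 0.0532 to 0.144. miR-376c was called in 20 of 23 alternatives, and the exceptions were the small nucleolar RNA reference, the deposited normalized values and the fit of only the 7 mice, each with 0 calls. No called miR changed its sign in the alternatives that gave it a value, 22 for miR-129-5p and miR-376a* and 23 for each of the other 14.

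**Figure D2:**
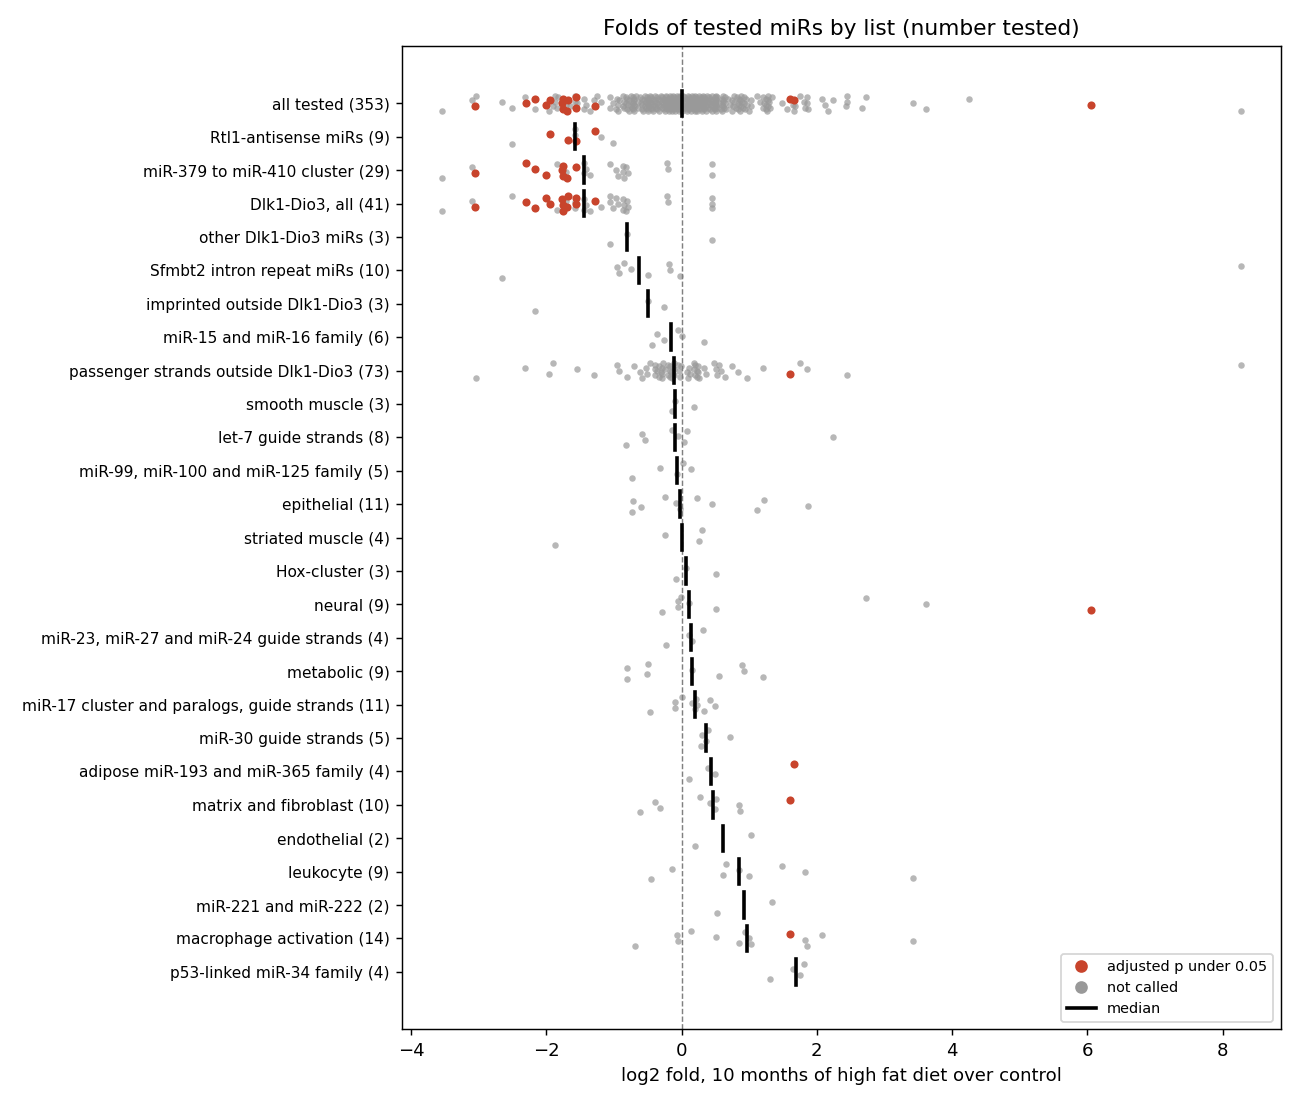
Log2 fold after 10 months of high fat diet over control (horizontal axis) of each tested miR, grouped by list (vertical axis, number tested in brackets), red where called and grey where not, with a black bar at the median. The 3 lists with the lowest medians, between -1.57 and -1.44, are those of the Dlk1-Dio3 region, and the miR-34 family has the highest at 1.70 with 0 members called.

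Of the 3 miRs that rose, miR-21* is the passenger strand of miR-21, a miR abundant in injured vessels and fibrosis. It was at -5.96, -6.77, -5.61 and -6.57 in controls and at -4.24, -5.08 and -4.53 after 10 months, without overlap. Its level was 3.05-fold higher (log2 fold 1.61, SE 0.37, limma adjusted p = 0.0475), and its fold without replicate 2 was 1.84. miR-21 itself was at 4.13, 4.32, 4.28 and 4.55 in controls and at 5.23, 4.73 and 4.51 after 10 months, with replicate 3 inside the range of the controls (log2 fold 0.50, SE 0.38, limma adjusted p = 0.634).

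miR-193, of a family known for its role in brown fat cells, was at -2.24, -2.73, -2.69 and -3.53 in controls and at -1.45, -0.77 and -1.19 after 10 months. Every diet mouse lay above every control, and the level was 3.16 times that of controls (log2 fold 1.66, SE 0.41, limma adjusted p = 0.0489). Without replicate 2 it was not called (1.47, limma adjusted p = 0.144). By comparison, the fold of its passenger strand miR-193* was 0.10, that of miR-193b, which has the same seed and differs at 3 of 22 bases, was 0.49, and that of miR-365, whose genes neighbour those of this family, was 0.39. None of these passed the threshold, and the folds of miR-193b and miR-365 were -0.09 and -0.13 without replicate 2.

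The third, miR-129-5p, is known from brain. It was detected in 3 of 3 diet mice, at -4.13, -3.28 and -2.87, and in 1 of 4 controls, at -5.62, while the other 3 controls lay at their limits of -9.70, -11.74 and -10.88. The log2 fold of 6.06 (SE 1.20, limma adjusted p = 0.0246) is tied to the level assumed for the undetected wells and ran from 2.19 to 10.03 over 22 alternatives. miR-129-5p passed the filter through the diet groups, where it was detected, so its fold and p carry that selection. It was not called with undetected wells missing (limma adjusted p = 0.143) or without replicate 2 (0.0564). Its other arm, miR-129-3p, was detected in all 7 mice, at 0.06, -4.77, -2.27 and -2.73 in controls and at 0.35, 2.00 and 1.20 after 10 months. The diet mice lay above the controls, which were themselves widely spread (log2 fold 3.61, SE 0.98, limma adjusted p = 0.0715). Of the 9 tested miRs of the neural list, 1 rose, 5 were positive and the median was 0.12. The positive ones include miR-129-5p and miR-219 (log2 fold 2.73), which was detected in 3 of 3 diet mice and 2 of 4 controls. miR-219 passed the filter only through the 10-month group, so its fold carries that selection.

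**Figure D3:**
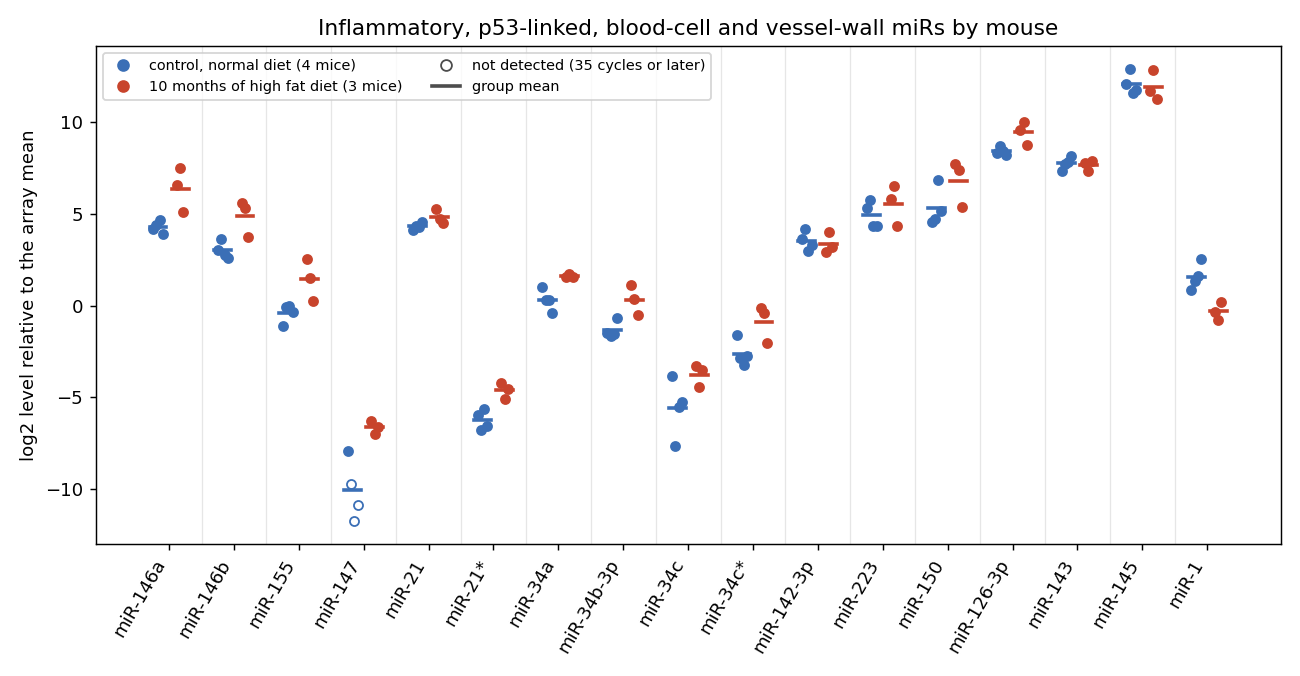
Log2 level relative to the array mean (vertical axis) of inflammatory, p53-linked, blood-cell and vessel-wall miRs (horizontal axis), 1 point per mouse, blue for the 4 controls and red for the 3 mice after 10 months, open where not detected, with bars at group means. miR-146a lies at 5.10 to 7.47 in diet mice and 3.91 to 4.67 in controls, while miR-143 and miR-145 overlap between the groups.

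Among miRs linked to macrophage activation, 1 of 14 tested rose, 0 fell and 11 were positive, with a median log2 fold of 0.97. The 3 negative members were miR-187 at -0.69, miR-125b-5p at -0.06 and miR-9 at -0.05. The member that rose was miR-21*. miR-146a, which damps NF-kB signalling by targeting its upstream kinases and adaptors, was at 4.19, 4.38, 4.67 and 3.91 in controls and at 6.53, 7.47 and 5.10 after 10 months. The groups did not overlap, but the 10-month mice were widely spread (log2 fold 2.08, SE 0.52, limma adjusted p = 0.0533). Without replicate 2 the fold of miR-146a was 1.53 (limma adjusted p = 0.147). In the same direction, miR-146b was at 3.03, 3.65, 2.75 and 2.56 against 5.56, 5.31 and 3.71 (log2 fold 1.86, SE 0.52, limma adjusted p = 0.0738). The mature forms share their seed and are set out here because they can pair with the same sites:
miR-146a: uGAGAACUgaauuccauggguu
miR-146b: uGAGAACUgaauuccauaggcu
They differ at 2 of 22 bases, near the 3′ end, so a part of either signal could come from the other if the assays cross-react, which was not tested.

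miR-155, made by activated macrophages and lymphocytes, was at -1.12, -0.09, -0.05 and -0.33 in controls and at 2.55, 1.49 and 0.26 after 10 months (log2 fold 1.83, SE 0.52, limma adjusted p = 0.0738). miR-147, which Toll-like receptors induce, was detected in 3 of 3 diet mice, at -6.31, -6.99 and -6.62, and in 1 of 4 controls, at -7.93. The other controls lay at their limits (log2 fold 3.43, SE 1.07, limma adjusted p = 0.1), and the fold ran from 1.30 to 7.40 over 18 alternatives. miR-147 passed the filter only through the 10-month group, where it was detected, so its fold and p carry that selection. It is counted among the positive members of the macrophage and leukocyte lists. For miR-146a, miR-146b and miR-155 replicate 3 was the lowest of the 3 diet mice, and for miR-146a replicate 2 was the highest. The median of the macrophage list was 0.55 without replicate 2 and 1.31 without replicate 3.

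Markers of blood cells differed among themselves. miR-142-3p, found across blood-cell lineages, was at 3.61, 4.18, 2.97 and 3.28 in controls and at 2.90, 3.99 and 3.21 in diet mice, inside or just below the range of the controls (log2 fold -0.14, SE 0.41, and -0.46 without replicate 2). The fold of its other arm, miR-142-5p, was positive with overlapping groups (log2 fold 0.66, SE 0.44, limma adjusted p = 0.604, and 0.78 without replicate 2). miR-223, of neutrophils and macrophages, was at 5.30, 5.76, 4.31 and 4.35 against 5.79, 6.50 and 4.34, overlapping (log2 fold 0.62, SE 0.54, and 0.14 without replicate 2). miR-150, of mature lymphocytes, was at 4.52, 4.69, 6.85 and 5.17 against 7.68, 7.37 and 5.34 (log2 fold 1.49, SE 0.69), where control replicate 3 lay above diet replicate 3. Of the 9 tested members of the leukocyte list, which shares miR-147, miR-155 and both arms of miR-342 with the macrophage list, 0 rose, 0 fell and 7 were positive. The median was 0.85, and 0.37 without replicate 2. Its summed level ranged from 6.47 to 7.36 in controls and from 6.41 to 8.44 after 10 months. What these differences contribute to the other results was not tested.

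All 4 tested miRs of the p53-linked miR-34 family, which slow the cell cycle and of which miR-34a is known to rise in aged vessels, had a positive fold, with a median of 1.70 and 0 called. miR-34a was at 1.00, 0.31, 0.30 and -0.43 in controls and at 1.53, 1.69 and 1.56 after 10 months, above every control (log2 fold 1.30, SE 0.47, limma adjusted p = 0.162). miR-34b-3p was at -1.48, -1.67, -1.57 and -0.66 against 1.12, 0.33 and -0.54, also without overlap (log2 fold 1.65, SE 0.48, limma adjusted p = 0.0764). For miR-34c* the fold was 1.75 (limma adjusted p = 0.133, SE 0.58) and for miR-34c it was 1.81 (SE 1.03), and in both the groups overlapped. The family is shown because its members reach these assays from separate hairpins and through different seeds:
miR-34a: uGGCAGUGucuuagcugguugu
miR-34b-3p: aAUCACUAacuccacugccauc
miR-34c*: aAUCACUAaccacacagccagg
The last pair share a seed, differ at 5 of 22 bases, and lie close together on chromosome 9, with miR-34c* at chr9:51103044-51103065 and miR-34b-3p at chr9:51103574-51103595. At 3 months the folds against the same controls were 0.08 for miR-34a, 0.82 for miR-34b-3p and -0.17 for miR-34c*.

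The smooth muscle and endothelial miRs that mark the labelled tissue were detected in every mouse. miR-145, a miR of contractile smooth muscle, was at 12.05, 12.90, 11.55 and 11.73 in controls and at 11.68, 12.83 and 11.24 after 10 months, overlapping (log2 fold -0.14, 95% interval -1.16 to 0.88). miR-143, from the same transcript, was at 7.32, 7.71, 7.80 and 8.16 against 7.75, 7.31 and 7.87 (log2 fold -0.10, SE 0.29). The sign of both changed with the reference used for centring, and without replicate 2 their folds were -0.60 and 0.07. miR-126-3p, which promotes vascular growth factor signalling in endothelium, was at 8.29, 8.69, 8.40 and 8.21 in controls and at 9.54, 9.98 and 8.76 after 10 months. Every diet mouse lay above every control, and the fold missed the threshold (log2 fold 1.03, SE 0.36, limma adjusted p = 0.139). Without replicate 2 the fold of miR-126-3p was 0.76 (limma adjusted p = 0.441). Its partner arm miR-126-5p was at 0.20 (SE 0.25). miR-1, a miR of striated and smooth muscle, was at 0.83, 1.31, 1.59 and 2.52 against -0.35, -0.77 and 0.19, without overlap (log2 fold -1.87, SE 0.57, limma adjusted p = 0.0961), whereas miR-133a was at 0.25 (SE 0.40).

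Among miRs of other tissues, miR-122, a liver miR, was detected in all 7 mice and ranged from -2.84 to 2.07 in controls and from -0.50 to 0.95 after 10 months (log2 fold 1.21, SE 1.02). Of the blood-carried erythroid miRs, miR-451 was at -0.42 (SE 0.70), and miR-486 was detected in 2 of 4 controls and 2 of 3 diet mice. Of 11 tested epithelial miRs 5 were positive, with a median of -0.02 (0.41 without replicate 2). Over the 10 tested matrix and fibroblast miRs the median was 0.46, with 1 called, miR-21*, and miR-29a, which represses collagens, at 0.87 (SE 0.29, limma adjusted p = 0.126) and no overlap. The median was 0.15 over 9 metabolic miRs and 0.44 over the 4 of the miR-193 and miR-365 family, of which miR-193 rose, 0.93 over miR-221 and miR-222, and 0.36 over the 5 miR-30 guide strands, all 5 positive. Without replicate 2 it was 0.04 for the miR-193 and miR-365 family, 0.55 for miR-221 and miR-222 and 0.14 for the miR-30 strands. The let-7 (-0.10), miR-17 (0.19), miR-15 (-0.16), miR-99 (-0.06), miR-23 (0.13), Hox-cluster (0.06) and striated muscle (0.0049) lists had 0 called. Without replicate 2 their medians, in the same order, were -0.19, -0.12, -0.28, -0.47, 0.24, -0.21 and 0.01, against 0.07 over all tested miRs.

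Of the 312 tested miRs outside the Dlk1-Dio3 region, 12 lay below every control in all 3 diet mice and 23 lay above. Over all 353 tested miRs these numbers were 33 (9.35%) and 23 (6.52%). Of the 12 that lay below, 0 were called, and let-7d*, miR-31* and miR-296-5p were among them. let-7d* was at 1.19, 2.09, 0.36 and 0.98 in controls and at -1.40, -0.04 and -0.80 after 10 months (log2 fold -1.90, SE 0.49, limma adjusted p = 0.0617). miR-31* was at 2.49, 2.30, 2.32 and 2.18 against 1.26, 0.53 and 1.28 (log2 fold -1.30, SE 0.37, limma adjusted p = 0.0738). miR-296-5p, which lies in the imprinted Gnas region, was at -1.73, -1.66, -2.16 and -0.45 against -4.36, -2.92 and -3.71 (log2 fold -2.17, SE 0.62, limma adjusted p = 0.0738). Of the 3 tested miRs of imprinted loci outside Dlk1-Dio3 all were negative with a median of -0.50 (-0.84 without replicate 2), and 0 were called. Of 10 tested miRs of the Sfmbt2 intron and related repeats 9 were negative with a median of -0.63 (-0.20 without replicate 2), and 0 were called.

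Among the miRs higher after 10 months that did not pass, miR-805 was at 4.01, 3.28, 3.80 and 4.06 in controls and at 5.15, 5.82 and 5.43 in diet mice (log2 fold 1.68, SE 0.48, limma adjusted p = 0.0738). miR-879* was at 1.85 (SE 0.57, limma adjusted p = 0.0961) with no overlap, and miR-139-5p at 1.28 (SE 0.40, limma adjusted p = 0.099) with overlap. Detection itself switched for 4 of the 517 miR assays, which were detected in all mice of 1 group and in at most 1 of the other. miR-129-5p, miR-147 and miR-297a* were detected in 1 of 4 controls and 3 of 3 diet mice, and miR-343 in 4 of 4 controls and 1 of 3 diet mice. For miR-297a* the detected control, at 0.45, lay inside the range of the diet mice, at -0.82 to 1.64 (log2 fold 8.26, SE 3.36, limma adjusted p = 0.236). This fold is tied to the level assumed for undetected wells and ran from -0.15 to 12.24 over 19 alternatives. Both miR-147 and miR-297a* passed the filter only through the 10-month group, so their folds and p values carry that selection.

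Over all tested miRs 60 (17%) had an unadjusted p under 0.05, and in 56 (15.9%) the groups did not overlap. A mature sequence was found for 250 of the 353, with 197 different seeds, of which 30 were shared by 83 miRs. No called miR shared its seed with another called miR. Families with all members of 1 sign included miR-29 (3 positive, median 0.85), miR-25, miR-32 and miR-92a (3 positive, median 0.50, with miR-25 at -0.08 without replicate 2), miR-130 and miR-301 with miR-721 (4 negative, median -0.47) and miR-148 with miR-152 (3 negative, median -0.38). Another was miR-30a, miR-30c and miR-30e with miR-384-5p (4 positive, median 0.55). Over all tested miRs 50.4% of folds were positive, so families this small can have 1 sign without a shared change, which was not tested. Members of a family were 1 to 2 bases apart in several cases, and their assays are not independent measurements if they cross-react.

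A ratio of the arms of a hairpin does not depend on the centring of an array where both assays stand in the same block of the table. For most pairs, those of miR-193, miR-21, let-7d, miR-411 and miR-376b among them, the arms stand in different blocks, and the ratio shifts if blocks are centred separately, which also gave 0 calls. Both arms were detected in all 11 samples for 68 of 148 pairs. Limma called 0 of 68 (0%) at an adjusted p under 0.05. Before adjustment 3 (4.41%) were under 0.05, and 6 (8.82%) had groups that did not overlap. The ratio of miR-193 to miR-193* was -1.62, -1.70, -2.98 and -2.90 in controls and -0.56, -0.23 and -1.45 after 10 months. The diet mice lay above the controls, and the ratio differed by 1.55 on the log2 scale (SE 0.58, limma adjusted p = 0.471). That of miR-345-5p to miR-345-3p differed by 1.42 (SE 0.53, limma adjusted p = 0.471) and that of let-7d to let-7d* by 1.36 (SE 0.53, limma adjusted p = 0.471). For miR-21 over miR-21* the ratio was 10.09, 11.09, 9.89 and 11.12 in controls and 9.47, 9.81 and 9.04 after 10 months. The diet mice lay below the controls, by 1.11 (95% interval -2.33 to 0.11, limma adjusted p = 0.828). An unequal change of the miR-21 arms was thus not shown.

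**Figure D4:**
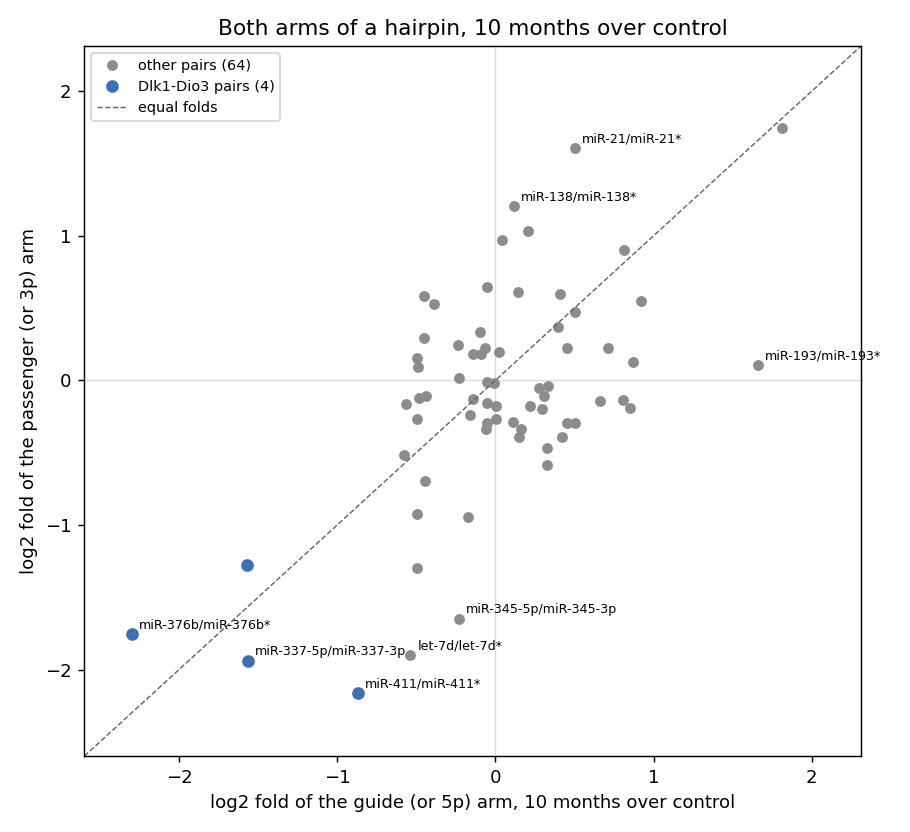
Log2 fold of the guide or 5p arm (horizontal axis) against that of the passenger or 3p arm (vertical axis) after 10 months of high fat diet over control, 1 point for each of 68 hairpins with both arms detected in all 11 samples, blue for the 4 of the Dlk1-Dio3 region, with a dashed line of equal folds. The blue points lie where both folds are negative, and miR-193, at 1.66 against 0.10 for its passenger strand, lies far to the right of the line.

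For the 4 Dlk1-Dio3 pairs the ratio differed by 1.30 for miR-411 over miR-411* (95% interval -0.70 to 3.30), 0.38 for miR-337-5p over miR-337-3p (-0.56 to 1.31), -0.55 for miR-376b over miR-376b* (-2.04 to 0.95) and -0.29 for miR-434-5p over miR-434-3p (-1.32 to 0.73). Both arms of each had a negative fold, and none of the 4 ratios was called (smallest limma adjusted p = 0.828).

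**Figure D5:**
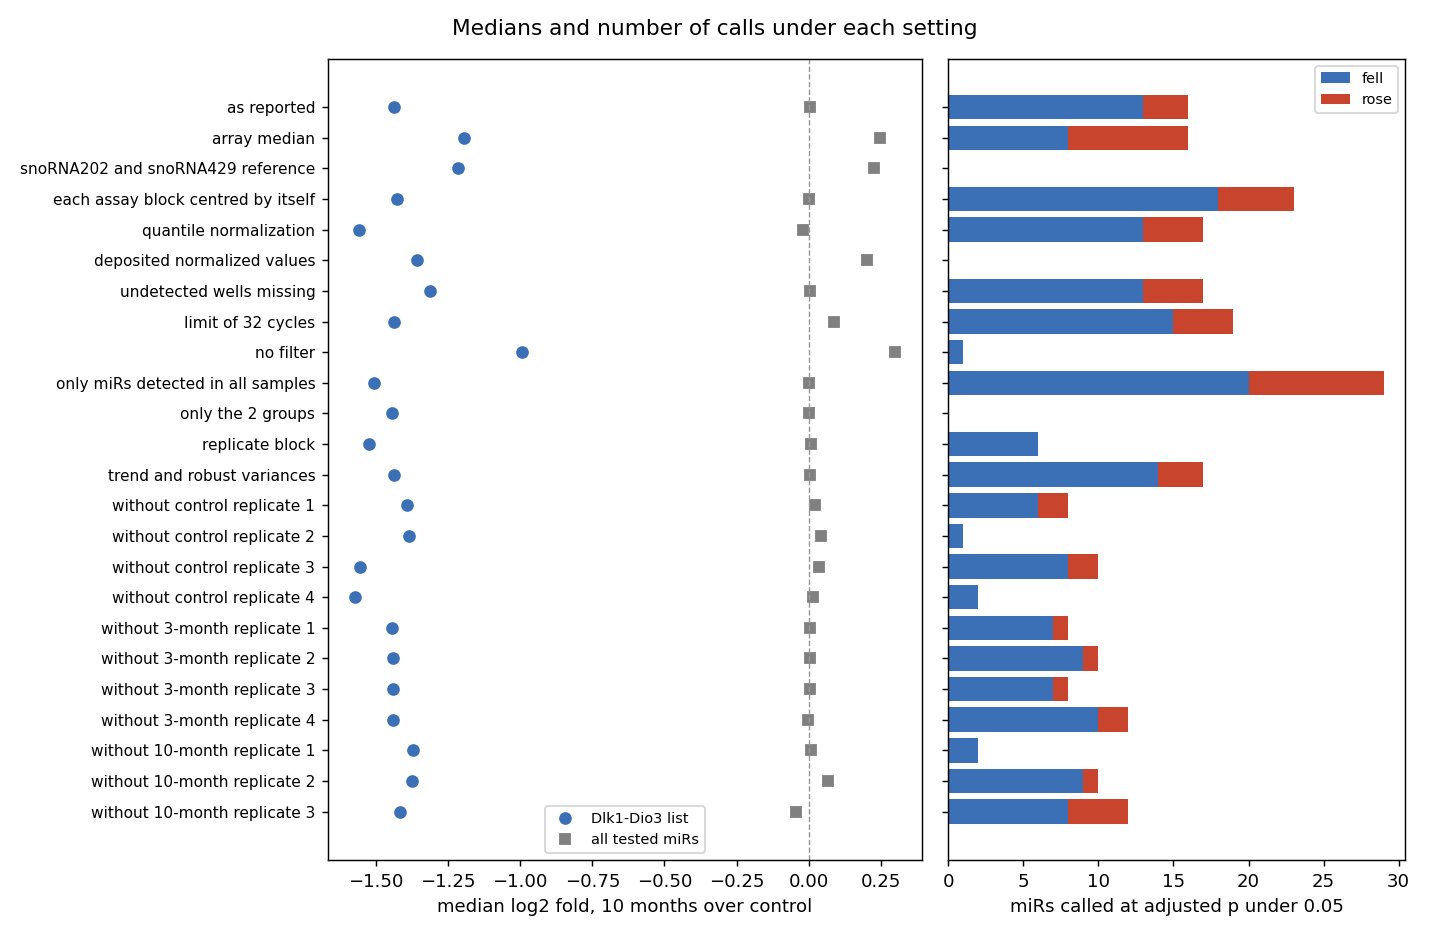
Left, median log2 fold after 10 months over control (horizontal axis) of the Dlk1-Dio3 list (blue circles) and of all tested miRs (grey squares) under each setting (vertical axis). Right, number of miRs called (horizontal axis, starting at 0), blue for those that fell and red for those that rose. The blue circles lie between -1.57 and -0.99 in every setting, while the number of calls runs from 0 to 29.

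The median of all tested miRs moved by more than 0.1 with the reference, to 0.25 with the array median, 0.23 with the small nucleolar RNAs and 0.20 in the deposited normalized values. With the array median 16 miRs were also called, but 8 rose and 8 fell, and those that rose included miR-146a, miR-146b and miR-155 beside miR-21*, miR-193 and miR-129-5p, with miR-29a and miR-139-5p. Relative to the median of all tested miRs, that of the Dlk1-Dio3 list lay between -1.59 and -1.29 in all 23 alternatives. The array median, the small nucleolar RNA reference and the changed variance model cannot alter this difference. It was -1.44 under each, as in the main fit. The fits without a 3-month mouse compare the same 7 mice, and there it lay between -1.45 and -1.44.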

How the data were processed

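RNA of whole aorta was measured on 11 PCR arrays, 1 mouse each. It was extracted with the mirVana kit, and its integrity number had to exceed 8, per the labels and the design text. The authors deposited a table of threshold cycles, which are log2 values not normalized, with 530 rows: 335 and 182 miR assays in 2 blocks and 13 rows of control assays. Wells at 40 showed no amplification, judging from the values. A further deposited table of log2 values, with 519 rows, equals the cycles minus the mean of snoRNA202 and snoRNA429 (largest difference 5e-05), found by comparing the tables. The sources used here name no instrument or software. Folds take each cycle as a doubling, which was not measured.

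Wells at 35 cycles or later counted as undetected and took the value 35. Centring used the array mean over the 285 miRs that all 11 samples detected. Tested were the 353 miRs with 3 or more detections in some group, with limma 3.58.1 under R 4.3.3 (lmFit, eBayes, two-sided), in 1 model of 3 groups (residual degrees of freedom 8, prior 2.11), adjusted by Benjamini-Hochberg over all 353. Standard errors of the log2 folds had a median of 0.49, and the number of mice limits the precision. The mice are separate replicates per the labels. On that ground the numbers were not treated as pairs. Same-numbered mice had deviations correlated at -0.11, 0.28 and 0.16. For 10-month replicates 2 and 3 this was the highest correlation with any of the 4 controls. With the replicate number as a block, 6 miRs fell and 0 rose. Numbers of detected miRs and mean cycles were compared by exact permutation tests over mice. Sequences and positions came from RefSeq tables of GRCm38.p6, matched by name; the files name no build.

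The members and lists were chosen with earlier results of these data known. Lists are described by counts and medians, without a test. Named were all called miRs, the 10 higher and 10 lower with the smallest unadjusted p among those not called and detected in all 7 mice, the other arms of called miRs, up to 3 members per list with fixed markers, miRs whose detection switched, the leading arm pairs and the 5 miRs with the highest control levels; not all are given values. The model was tried on simulated data. The 23 alternatives changed the centring, the detection limit, the filter, the samples, the replicate block or the variance model, or left out 1 mouse.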

Additional observations from a re-analysis of the deposited data

Results flagged for a closer look

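Of 102 named and tested miRs, 5 had a control mouse set apart from the other 3 by the gap rule of Dixon, and by chance about 5% of groups of 4 are set apart in this way. miR-673-3p was not detected in control replicate 4, at -10.88, and lay between -3.08 and -2.61 in the other controls. let-7f was not detected in control replicate 2, at -9.70, and lay between 1.48 and 3.42 in the others. miR-297a* was detected in control replicate 1 alone, at 0.45, with the others at their limits between -11.74 and -9.70. miR-133a was at 6.69 in control replicate 3 against 7.02 to 7.06, and miR-30d at 3.98 in control replicate 2 against 3.42 to 3.50. None of these 5 was called.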

How the results depend on the processing

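The number of miRs called (16) was 0 with the small nucleolar RNA reference (40 at an unadjusted p under 0.05), 0 with the deposited normalized values (39) and 0 in the fit of only the 7 mice (53), all by limma. It was 1 with no filter, 29 with only miRs detected in all samples and 1 to 12 when 1 mouse was left out. The replicate number as a block gave 6 calls; the arm ratios kept 0. Under the array median, small nucleolar RNA reference and deposited values, in this order, the log2 fold of miR-143 was 0.14, 0.12 and 0.12, the log2 fold of miR-145 was 0.10, 0.084 and 0.084, the log2 fold of miR-142-3p was 0.098, 0.078 and 0.078, and the log2 fold of miR-10a was 0.15, 0.13 and 0.13. With the array median alone, the log2 fold of miR-133b was 0.00017 and the log2 fold of miR-23b was 0.0098. With quantile normalization, the log2 fold of miR-125a-5p was -0.14, the log2 fold of miR-126-5p was -0.018, the log2 fold of miR-133a was -0.061 and the log2 fold of miR-27b was -0.054 (-0.028 with the block). With undetected wells missing, the log2 fold of let-7f was -0.80, the log2 fold of miR-297a* was -0.15, the log2 fold of miR-486 was -0.72 and the log2 fold of miR-673-3p was -1.54 (-0.23 at 32 cycles, -1.34 with the block). Over the fits without 1 mouse the sign changed within these ranges: the log2 fold of let-7f ran from -0.79 to 3.57, the log2 fold of miR-10a from -0.30 to 0.25, the log2 fold of miR-10b from -0.029 to 0.81, the log2 fold of miR-125a-5p from -0.49 to 0.70, the log2 fold of miR-133a from -0.089 to 0.56, the log2 fold of miR-142-3p from -0.46 to 0.089, the log2 fold of miR-143 from -0.24 to 0.067, the log2 fold of miR-145 from -0.60 to 0.20, the log2 fold of miR-145* from -0.17 to 0.56, the log2 fold of miR-193* from -0.22 to 0.37, the log2 fold of miR-193b from -0.090 to 0.99, the log2 fold of miR-196b from -0.26 to 0.66. Likewise, the log2 fold of miR-23b ran from -0.53 to 0.12, the log2 fold of miR-292-3p from -1.78 to 0.0995, the log2 fold of miR-294 from -1.98 to 0.059, the log2 fold of miR-365 from -0.13 to 0.72, the log2 fold of miR-411 from -1.47 to 0.037, the log2 fold of miR-451 from -0.87 to 0.22 and the log2 fold of miR-673-3p from -1.54 to 1.22. The number of miRs detected per mouse, 10 months against control, differed by -14.75 to 8.75, and the mean threshold cycle per mouse, 10 months against control, by -0.84 to 1.04. None of these miRs was called, and the cause of each change was not tested. Time on the diet and age are confounded, 3 mice against 4 leave single calls open to 1 mouse, and cycles near the detection limit bound what can be measured.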

Other observations

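The plant assay ath-miR159a, which has no target in mouse RNA, averaged 36.99 cycles over its 2 wells in control replicate 1, where 1 well amplified, and showed no amplification in the other 10 samples. Y1 RNA, a small RNA of the control assays, came at 33.6 cycles in replicate 2 of the 10-month group and at 20.7 to 25.9 in the other 10 samples. U6 RNA came at 17.6 cycles in the same mouse and at 11.05 to 14.9 in the others. Relative to the array mean, the mean of snoRNA202 and snoRNA429 was 7.82 ± 0.06 (SD, n = 4) in the normal diet group and 7.60 ± 0.39 (SD, n = 3) in the 10-month group (exact two-sided permutation p = 0.314).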
